A study of Mus musculus with 4 samples.

Results

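The Toll-like receptor (TLR), MYD88 and NF-kB pathway was followed through 48 named genes in pre-B cells, the bone marrow precursors that have assembled an immunoglobulin heavy chain but not yet a light chain. The genes were taken by symbol from the deposited tables: 8 receptors and co-receptors, 7 adaptors and proximal kinases, 9 TRAF proteins and downstream kinases, 3 subunits of the IkB kinase (IKK), 5 NF-kB subunits, 5 IkB proteins, 5 ubiquitin editors and inhibitor-of-apoptosis genes, 2 genes of the antigen receptor arm and 4 target genes. All 48 were found among the 23284 symbols of each table. The cells came from C57BL/6J mice and were read as 4 RNA-seq libraries, 1 per group. One pair, with the code 0901 in its titles, holds wild-type (WT) marrow and marrow carrying a STAP-2 transgene (Tg), both under steady state. The other pair, with the code 0826, holds WT marrow and marrow labelled STAP-2 knockout (KO), both 1 month after transplantation (Tx). The labels name neither the promoter of the transgene, nor the deleted part of the gene, nor the number of mice or their age, nor which cells the recipients kept. The study asked which pathways STAP-2, an adaptor protein, controls in B cell precursors under haematological stress.

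TLRs recognise microbial molecules, TLR1, TLR2, TLR4 and TLR6 mainly at the cell surface and TLR7 and TLR9 in endosomes. Through TIRAP and MYD88 they recruit IRAK kinases and TRAF6, which activate TAK1 and then the IKK complex. IKK marks the IkB proteins for destruction and so frees NF-kB dimers. NF-kB in turn switches on its own inhibitors, among them Nfkbia and Tnfaip3. The RNA level of these genes may follow the activity of the pathway, which was not measured here. STAP-2 is known to bind MYD88 and IKK subunits. In pre-B cells, signals of the pre-B cell receptor and of TNF family receptors feed into the same NF-kB proteins.

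Values are FPKM, normalised to transcript length and library size, so levels may be compared between genes. Sequencing depth, recovered from the spacing of the lowest values, was between 7250000 and 8660000 reads per library. Of the members, 39 had at least 100 estimated reads in each library, and 3 (Cd14, Il1b and Tnf) had fewer than 10 in at least 1. Each group is a single library, so differences carry no replicate error and no p-value is given. Ratios carry 95% exact Clopper-Pearson intervals from estimated reads, which reflect counting error alone and treat reads, here without molecular identifiers, as if they were separate molecules. In bulk samples fewer cells of a type and less RNA per cell cannot be told apart. Of the pre-B markers, Cd79a was between 1624 and 1952 FPKM and Vpreb3 between 1291 and 1492 FPKM, while the surrogate light chain genes Vpreb1, Vpreb2 and Igll1 were far lower, with Vpreb2 listed at 0 in steady-state WT. Stap2 was read at 0.212 FPKM in WT and 0.536 in Tg at steady state, listed at 0 in transplanted WT and at 0.179 in the library labelled KO, that is at 5 estimated reads or fewer, so its level checks neither label. Every direction given for the library labelled KO rests on that label.

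Start-site sequences of 5 members that NF-kB itself induces are shown first, because the results compare genes of this kind that were level, such as Nfkbia and Nfkbie, with others that were not, such as Nfkb2. The bases before the start were taken from RefSeq promoters on GRCm38.p6, where 37 of the 48 members had an entry, and both strands of the 250 bases before each start were searched for the kappaB decamer, the DNA word that NF-kB dimers bind. Of the 16 members known as feedback or target genes of NF-kB, 12 had an entry and 6 of these (50%) held the decamer. Of the 25 other members with an entry, 6 (24%) held it, against 10.5% of 7906 genes at 1 FPKM or more in any library. A narrower form of the decamer, GGGANTTTCC, which is contained in it, was found in 4 of the 37 members and in 0.481% of those 7906 genes. Capitals mark each match to the decamer, overlapping matches being joined.
Nfkbia, chr12:55492648-55492727, minus strand: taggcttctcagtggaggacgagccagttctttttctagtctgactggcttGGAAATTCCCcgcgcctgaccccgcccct
Nfkbie, chr17:45555559-45555638, plus strand: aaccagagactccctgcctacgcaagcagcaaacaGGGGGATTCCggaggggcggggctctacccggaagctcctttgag
Rel, chr11:23771016-23771095, minus strand: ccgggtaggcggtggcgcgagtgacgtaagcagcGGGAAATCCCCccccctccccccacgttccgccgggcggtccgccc
Tnfaip3, chr10:19015411-19015490, minus strand: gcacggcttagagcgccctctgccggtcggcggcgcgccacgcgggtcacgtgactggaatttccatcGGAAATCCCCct
Nfkb2, chr19:46304693-46304713, plus strand: gtcacGGGAATTCCCCccctc
Nfkb2, chr19:46304721-46304736, plus strand: cgaaaGGGGCTTTCCc
The windows of Nfkbia and Tnfaip3 end at the base before the start, and those of Nfkb2 are cut short because another annotated transcript covers them. Of the members with an entry whose highest and lowest libraries differed by more than 1.5-fold, Il1b, Traf1, Tnf, Tlr1, Bcl3, Icam1, Tlr9 and Irak2 held no decamer in this window, and Tlr2 and Nfkb2 did. A match describes letters, not binding, and no match says only that the letters are absent from these 250 bases.

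Most of the pathway was expressed at moderate levels and held steady. Of the 48 members, 37 had a mean of at least 10 FPKM and 44 were at 1 FPKM or more in every library. The highest and lowest of the 4 libraries differed by less than 1.5-fold for 33 members, by 1.5-fold to 2-fold for 8, and by more for 7, counting Cd14, which was listed at 0 in 1 library. Below, 4 values in a row stand for WT and Tg at steady state, transplanted WT, and the library labelled KO, in that order.

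**Figure D1:**
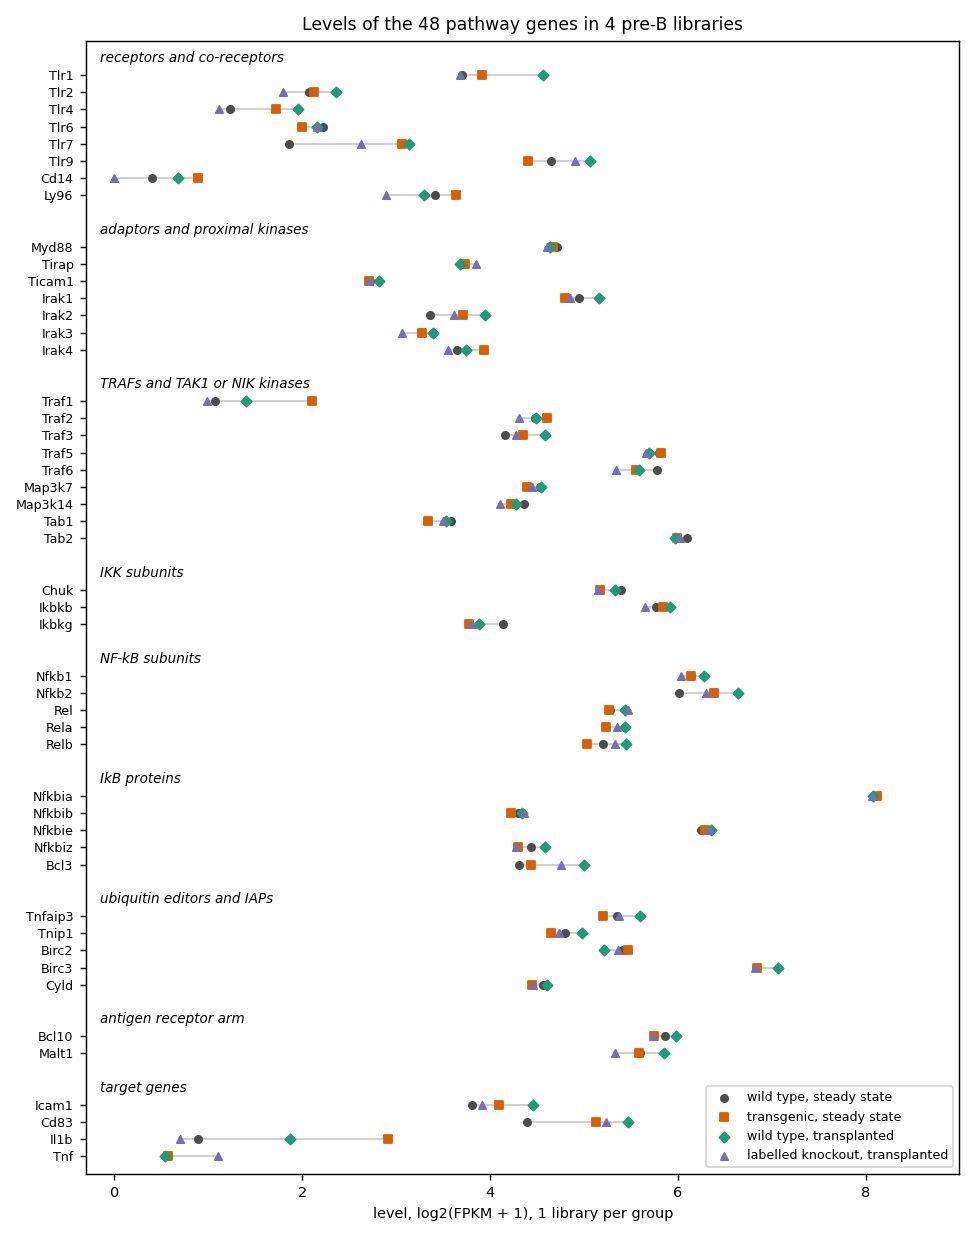
Level of each of the 48 genes on the log2(FPKM + 1) scale, grouped by role, with 1 point per library (circle WT and square Tg at steady state, diamond transplanted WT, triangle library labelled KO) and a line from the lowest to the highest. Nfkbia is the highest gene, with its 4 points almost on each other, while Il1b, Traf1, Tlr7 and Tlr4 spread widely at low levels.

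Adaptors and kinases that link receptor to NF-kB differed in how even they were, from Myd88 with a range of 1.09-fold to Irak2 with 1.56-fold. Myd88, the adaptor of nearly all TLRs, was at 25.3, 24.6, 23.9 and 23.3 FPKM. Tirap, which bridges it to TLR2 and TLR4, was at 12.2, 12.3, 11.8 and 13.5, and Ticam1, the adaptor of the MYD88-independent route, at 5.62, 5.56, 6.05 and 5.57. The levels of these adaptors were close in all libraries, and the interval of the ratio included 1 in both genotype comparisons for Myd88 and Ticam1. Among kinases, Map3k7, the gene of TAK1, was at 22.1, 20.05, 22.3 and 20.8 FPKM, and its partner Tab2 at 67.8, 62.6, 61.6 and 63.8. The IKK subunits had a wider spread. Chuk (IKK alpha) was at 41.0, 35.1, 39.2 and 34.6 FPKM, Ikbkb (IKK beta) at 53.5, 56.5, 59.3 and 49.3, and Ikbkg, the regulatory subunit NEMO, at 16.6, 12.7, 13.7 and 12.98. Chuk and Ikbkg were lower in both altered libraries than in their own WT, whereas Ikbkb was lower in the library labelled KO alone. For Ikbkg the interval in the library labelled KO included 1 (0.944, 0.850 to 1.05).

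The most even member of all was an inhibitor gene that NF-kB itself induces, although Tnfaip3, another such gene, had a range of 1.32-fold. Nfkbia, the gene of IkB alpha, stood at 278, 278, 270.3 and 267 FPKM, a range of 1.04-fold, and its sequence above holds 1 decamer close to the start. Nfkbie, the gene of IkB epsilon, was at 75.01, 77.0, 81.1 and 79.5 FPKM, a range of 1.08-fold. Nfkbib was at 18.6, 17.7, 19.3 and 19.6. The nuclear IkB proteins were less even: Nfkbiz was at 20.6, 18.7, 23.1 and 18.3 FPKM and Bcl3, a coactivator of p50 and p52 dimers, at 18.8, 20.7, 31.1 and 26.03. Both were highest in transplanted WT. Of the subunits, Nfkb1 was at 69.6, 69.7, 76.8 and 64.7 FPKM, Rel at 37.8, 37.4, 42.3 and 43.4 and Rela at 42.4, 36.7, 42.4 and 39.8. Nfkb2, the p100 precursor of the alternative pathway, was at 63.4, 82.6, 98.6 and 78.0 and so had the widest range of the subunits, 1.55-fold, while its partner Relb was at 35.7, 31.8, 42.6 and 39.3.

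The comparison of Tg with WT at steady state asks what added STAP-2 does without transplantation. The pathway as a whole was level, and 4 low or moderate genes stood above it: Il1b, Tlr7, Traf1 and Cd83 were higher in Tg by at least 1.5-fold on the log2(FPKM + 1) scale. Of the 46 members that reached 1 FPKM in one of the pair, 23 were higher and 23 lower, where 46.7% of all 10843 genes tested were higher and 53.3% lower. Their median difference was -0.0031, against -0.02 for all genes. The 4 genes make 1.5-fold higher calls in 4 of 46 members, against 3.81% of all genes, and no member was 1.5-fold lower, against 2.31%. At 2-fold, 3 members were higher and none lower, against 1.22% and 0.682% of all genes. These counts rest on few genes.

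Il1b (chromosome 2, 129364570 to 129371139, minus strand, GRCm38), the gene of the inflammatory cytokine interleukin-1 beta, was at 0.853, 6.51, 2.65 and 0.617 FPKM. Its ratio of Tg to WT was 7.63 (3.52 to 20.2) on 7.1 and 54.1 estimated reads. Tg was far above the other libraries and transplanted WT in between. Tlr7 (chromosome X, 167304929 to 167330558, minus strand), the endosomal receptor for single-stranded RNA, was at 2.62, 7.35, 7.80 and 5.17 FPKM, a ratio of 2.80 (2.13 to 3.75). For this gene steady-state WT was the 1 low library. Traf1 (chromosome 2, 34941750 to 34961772, minus strand), an NF-kB-induced signalling adaptor, was at 1.10, 3.31, 1.64 and 0.978 FPKM, a ratio of 3.02 (1.89 to 4.84), with Tg alone high. Cd83 (chromosome 13, 43784775 to 43803132, plus strand), an activation marker of B and dendritic cells, was at 20, 34.1, 43.3 and 36.8 FPKM, a ratio of 1.70 (1.48 to 1.95). Here again the steady-state WT was below the other 3 libraries.

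Smaller differences went both ways. The interval of the ratio lay above 1 for 10 members, against 15.1% of all genes with a known length, and below 1 for 10, against 18.7%. Above it were also Tlr4 (1.71, 1.14 to 2.64), Nfkb2 (1.30, 1.21 to 1.40), Irak2 (1.31, 1.09 to 1.58), Icam1 (1.24, 1.03 to 1.48), Irak4 (1.24, 1.03 to 1.48) and Traf3 (1.14, 1.04 to 1.26). Below it were Ikbkg (0.764, 0.686 to 0.850), Tlr9 (0.840, 0.741 to 0.949), Traf6 (0.855, 0.805 to 0.909), Chuk (0.857, 0.781 to 0.941) and Rela (0.865, 0.779 to 0.961). Irak1, Tnfaip3, Map3k7, Cyld and Tab2 completed that group, with ratios between 0.898 and 0.924. None of these was 1.5-fold lower. Among genes with at least 100 estimated reads in both libraries, the interval lay above 1 for 6 of 39 members, or 15.4%, against 15.5% of all such genes. It lay below 1 for 10 of the 39, or 25.6%, against 22.5%.

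The comparison of the library labelled KO with WT, both after transplantation, asks what loss of STAP-2 does in recovering marrow. Here the pathway stood lower as a body and by small amounts. Of the 47 members that reached 1 FPKM in one of the pair, 40 were lower and 7 higher, whereas 56% of all 10790 genes tested were lower and 44% higher. The median difference was -0.23, against -0.03 for all genes. Among genes with at least 100 estimated reads in both libraries, 35 of 40 members were lower, or 87.5%, against 56.5% of 8104 genes.

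**Figure D2:**
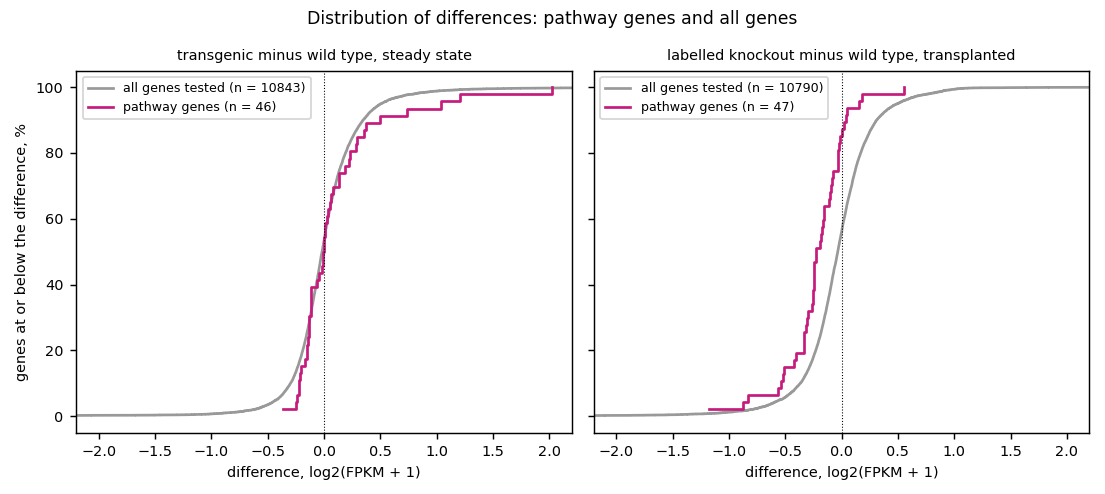
Cumulative share of genes at or below each difference on the log2(FPKM + 1) scale, for pathway genes (magenta) and all genes tested (grey), for Tg minus WT at steady state (left) and for the library labelled KO minus WT after transplantation (right). Genes with larger differences than the x axis shows lie outside it. The lines nearly coincide on the left and the pathway line lies to the left of the other on the right, with medians of -0.23 and -0.03.

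Of the roles, receptors had the lowest median difference, -0.51, with 6 of 7 tested lower, against 56% of all genes, though Tlr6 and Tlr9 differed little. Other roles were lower about as often, such as adaptors and proximal kinases (6 of 7) and TRAF proteins and downstream kinases (8 of 9). Tlr1 (chromosome 5, 64924679 to 64933563, minus strand), which pairs with TLR2 to sense bacterial lipopeptides, was at 12.0, 14.1, 22.6 and 11.9 FPKM, 1.91-fold lower (1.65 to 2.21) in the library labelled KO. Transplanted WT was the 1 high library for it. Its neighbour and close paralog Tlr6, with which reads may be shared, was at 3.65, 2.99, 3.45 and 3.46 FPKM. Tlr4 (chromosome 4, 66827584 to 66930284, plus strand), the lipopolysaccharide receptor, was at 1.35, 2.31, 2.87 and 1.17 FPKM, 2.45-fold lower (1.68 to 3.71) on 85.6 and 39.2 estimated reads. Its co-receptor gene Cd14 was at 0.317, 0.854 and 0.60 FPKM and listed at 0 in the library labelled KO, where 3 reads would be 0.242 FPKM. Its other partner Ly96, the gene of MD-2, was at 9.67, 11.5, 8.81 and 6.41, a ratio of 0.727 with a wide interval (0.390 to 1.26). Tlr2 was at 3.19, 3.38, 4.14 and 2.48 FPKM, 1.67-fold lower (1.19 to 2.35), and Tlr7 was 1.51-fold lower (1.23 to 1.86). Tlr9, the receptor for unmethylated CpG DNA and the highest of the receptors, was at 24.0, 20.2, 32.5 and 29.1 FPKM, a ratio of 0.895 (0.811 to 0.987).

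Only 3 of the 47 members, Il1b, Tlr1 and Tlr4, were lower by at least 1.5-fold on the log2(FPKM + 1) scale, against 4.39% of all genes, and 1 of them, Il1b, by 2-fold, against 1.18%. None was higher at 1.5-fold, where 3.76% of all genes were, or at 2-fold, where 0.667% were. Il1b had a ratio of 0.233 (0.0774 to 0.587) on 23.4 and 6.1 reads. By plain FPKM ratio Tlr2, Tlr7 and Traf1 (1.68-fold lower, 1.02 to 2.88) were also past 1.5-fold, and Tlr4 was past 2-fold. Tnf was past 2-fold in the other direction, on few reads. All genes were not counted by plain ratio. The shift thus lay in many small differences rather than in a few large ones. The interval of the ratio lay below 1 for 27 of 47 members, against 22.8% of all genes with a known length, and above 1 for 2, against 15.5%. Among the deeply read genes just described, the interval lay below 1 for 23 of 40 members, or 57.5%, against 25.3% of all such genes.

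These 27 came from every role. Malt1, the paracaspase that carries antigen receptor signals to IKK, was at 47.4, 47.2, 56.7 and 39.3 FPKM, a ratio of 0.693 (0.651 to 0.738), and was lowest in the library labelled KO. Its partner Bcl10 was at 57.4, 52.7, 62.4 and 52.1, a ratio of 0.836 (0.757 to 0.923). Of the proximal kinases, Irak1 was at 29.8, 26.8, 34.7 and 28.0 FPKM (0.805, 0.734 to 0.884) and Irak2 at 9.26, 12.1, 14.4 and 11.2 (0.778, 0.662 to 0.913). Irak3, a brake on the pathway known as IRAK-M, was at 9.49, 8.67, 9.48 and 7.34 (0.774, 0.630 to 0.946). Traf6, the ubiquitin ligase downstream of the IRAK kinases, was at 53.8, 46.0, 47.1 and 39.6 FPKM (0.840, 0.790 to 0.893). Traf3, which restrains the alternative pathway, was at 16.9, 19.3, 23.1 and 18.5 (0.799, 0.736 to 0.868). Traf5, at 54.8, 55.7, 50.6 and 49.7, had an interval that included 1.

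Feedback and target genes stood on the same side as the other members. Of the 16 feedback and target genes 14 were lower, at a median of -0.24, and of the 31 other members tested 26 were lower, at a median of -0.18. Of all genes tested 56% were lower, at a median of -0.03. Birc3, an inhibitor-of-apoptosis gene, was at 113, 114, 133 and 112 FPKM (0.843, 0.796 to 0.891). Tnfaip3, the gene of the deubiquitinase A20 that shuts the pathway off, was at 39.8, 35.9, 47.4 and 40.3 (0.851, 0.792 to 0.915), and its partner Tnip1 at 26.9, 24.1, 30.6 and 25.7 (0.839, 0.751 to 0.939). For these 3 genes the library labelled KO lay close to the steady-state WT level, and transplanted WT was the high library. Icam1, an adhesion molecule gene, was at 13.05, 16.2, 21.01 and 14.1 FPKM (0.672, 0.573 to 0.784), and Nfkb2 had a ratio of 0.791 (0.744 to 0.841). Against them, Nfkbia had a ratio of 0.988 (0.939 to 1.04), Nfkbie of 0.980 (0.911 to 1.05) and Rel of 1.03 (0.972 to 1.09), all with intervals that included 1. The 2 members with an interval above 1 were Birc2, at 41.7, 43.2, 36.1 and 40.2 FPKM (1.11, 1.02 to 1.22), and Tirap (1.14, 1.00 to 1.31). Tnf, the gene of tumour necrosis factor, was at 0.484, 0.488, 0.457 and 1.14 FPKM, and its ratio of 2.50 (0.848 to 8.84) rested on 5.0 and 14.1 reads.

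Both genotype comparisons can be set side by side, since they share no library. Of the 48 members, 22 were higher in Tg and lower in the library labelled KO, that is 45.8%, against 23% of 11053 genes at 1 FPKM or more in any library. Another 19 were lower in both, or 39.6% against 32.9% of all genes, 4 were lower in Tg and higher in the library labelled KO, against 20.1%, and 3 were higher in both, against 23.7%. Since 41 of the 48 members were lower in the library labelled KO and 25 higher in Tg, the first share was bound to be high. A link between the comparisons was not tested. Of the 10 members whose interval lay above 1 in Tg, 9 (90%) had an interval below 1 in the library labelled KO. Over all genes the corresponding share was 27.9% of 1561. Whatever their side in Tg, 27 of the 46 members tested in both comparisons had an interval below 1 in the library labelled KO. Of all genes tested in both, 2386 of 10458 did. Of the 10 members whose interval lay below 1 in Tg, 6 also had one below 1 in the library labelled KO, or 60%, against 36.9% of all such genes, so members on either side in Tg were often low there. Those 9 were Il1b, Tlr7, Traf1, Cd83, Tlr4, Nfkb2, Irak2, Icam1 and Traf3.

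**Figure D3:**
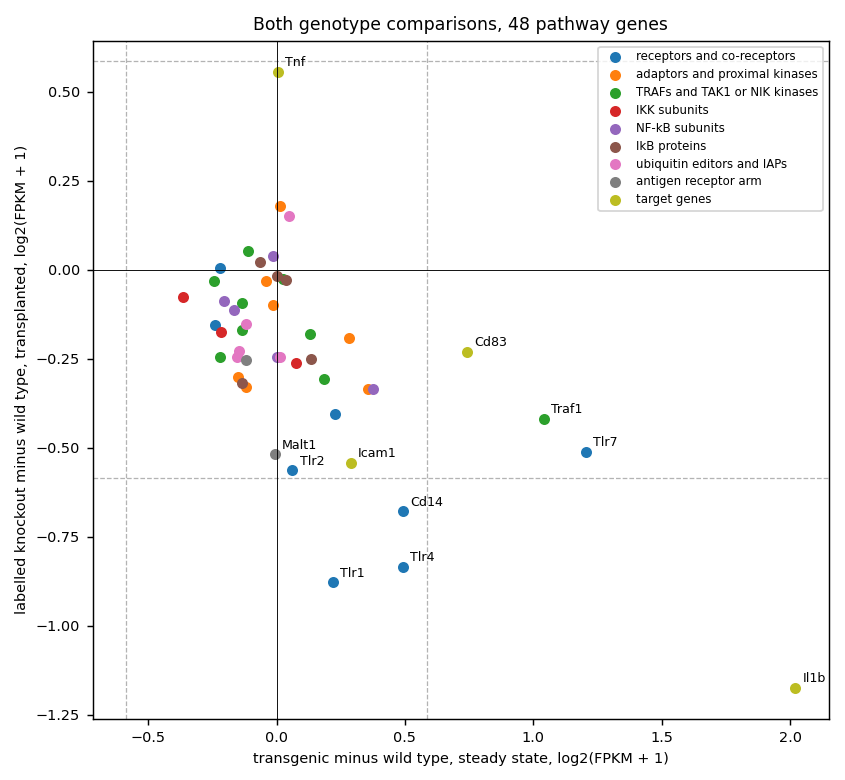
Difference of Tg minus WT at steady state (x axis) and of the library labelled KO minus WT after transplantation (y axis), both on the log2(FPKM + 1) scale, 1 point per gene coloured by role, with dashed lines at 1.5-fold. Most points lie close to x = 0 and below y = 0, and Il1b, Tlr7, Traf1 and Cd83 lie to the lower right.

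The order of the libraries shows where these differences sit. Transplanted WT was the highest library for 26 of the 48 members, or 54.2%, against 26.5% of the 11053 genes. The library labelled KO was the lowest for 22 members, or 45.8%, against 30.9%. Transplanted WT compared with steady-state WT had 32 of 46 members higher and 14 lower, against 45.9% and 54.1% of all 10835 genes, at a median of 0.13 against -0.02. At 1.5-fold 9 were higher and none lower, against 5.2% and 2.28% of all genes, and at 2-fold 2 were higher, Tlr7 and Cd83, and none lower, against 1.67% and 0.628%. The interval lay above 1 for 21 members and below 1 for 4, against 16.5% and 19.2% of genes with a known length. Besides Tlr7 and Cd83 the 9 were Il1b, Tlr1, Tlr4, Bcl3 (1.66, 1.40 to 1.96), Icam1 (1.61, 1.36 to 1.91), Nfkb2 (1.55, 1.45 to 1.66) and Irak2 (1.56, 1.30 to 1.87). Transplantation and whatever else separates the title codes cannot be told apart, and this comparison shares a library with each of the others. The 4 members with an interval below 1 were Ikbkg, Birc2, Traf6 and Tab2, with ratios between 0.826 and 0.909.

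Markers of other cell types moved with several members. The summed level of the 15 neutrophil markers in the tables was 777, 1859, 1717 and 662 FPKM, and that of the 9 monocyte and macrophage markers 51.1, 86.2, 127 and 52.2. All 15 neutrophil markers were higher in Tg than in its WT, at a median of 1.15, and 14 of 15 were lower in the library labelled KO than in its WT, at a median of -1.33. Of the monocyte and macrophage markers at 1 FPKM or more, 5 of 5 were higher in Tg and 7 of 7 lower in the library labelled KO. The defining macrophage gene Csf1r was at 0.632, 0.825, 2.78 and 1.00 FPKM, Fcgr1 was listed at 0 in both steady-state libraries, and C1qa was at 0.468, 3.46, 7.08 and 2.77. Both sums had Tg and transplanted WT above steady-state WT and the library labelled KO, as did C1qa but not Csf1r or Fcgr1. This order was shared by 16 of the 48 members, or 33.3%, against 14.4% of the 11053 genes. They were Tlr1, Tlr2, Tlr4, Tlr7, Cd14, Irak2, Irak4, Traf1, Traf2, Traf3, Ikbkb, Nfkb1, Nfkb2, Birc3, Icam1 and Il1b. Several of these, such as Il1b, Tlr4 and Cd14, are known to be strongly expressed by myeloid cells. Immediate early genes, which respond to stimulation and to the handling of cells, summed to 911, 609, 1169 and 457 FPKM. They were thus lowest in the library labelled KO and highest in transplanted WT. The members with both of these extremes were Tlr1, Tlr2, Tlr4, Ikbkb, Nfkb1, Nfkbiz, Birc3, Bcl10 and Malt1. How many of all genes had both was not counted. Within the pre-B list itself, 4 of 15 genes stood low in steady-state WT alone. They were Vpreb1 at 7.31, 34.4, 30.2 and 38.6 FPKM, Vpreb2, listed at 0 there and at 3.74, 7.59 and 8.86 in the others, Igll1 at 14.6, 39.9, 36.4 and 49.7, and Dntt at 2.12, 7.53, 12.1 and 15.1. The first 3 encode the surrogate light chain of the pre-B cell receptor. Steady-state WT was the lowest library for 8 of the 48 members: Tlr7, Cd83, Irak2, Traf3, Nfkb2, Nfkbie, Bcl3 and Icam1. The share of all genes lowest there was not computed. The part of these marker genes in the differences of the pathway was not tested. The 7 dendritic markers summed to between 1.82 and 2.23 FPKM, with none at 1 FPKM, and the 8 T and NK cell markers to between 4.40 and 9.27. The 6 erythroid markers summed to 36.5, 5.10, 6.34 and 9.16 FPKM, highest in steady-state WT. The 3 tested in Tg were all lower in Tg by at least 2-fold.

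**Figure D4:**
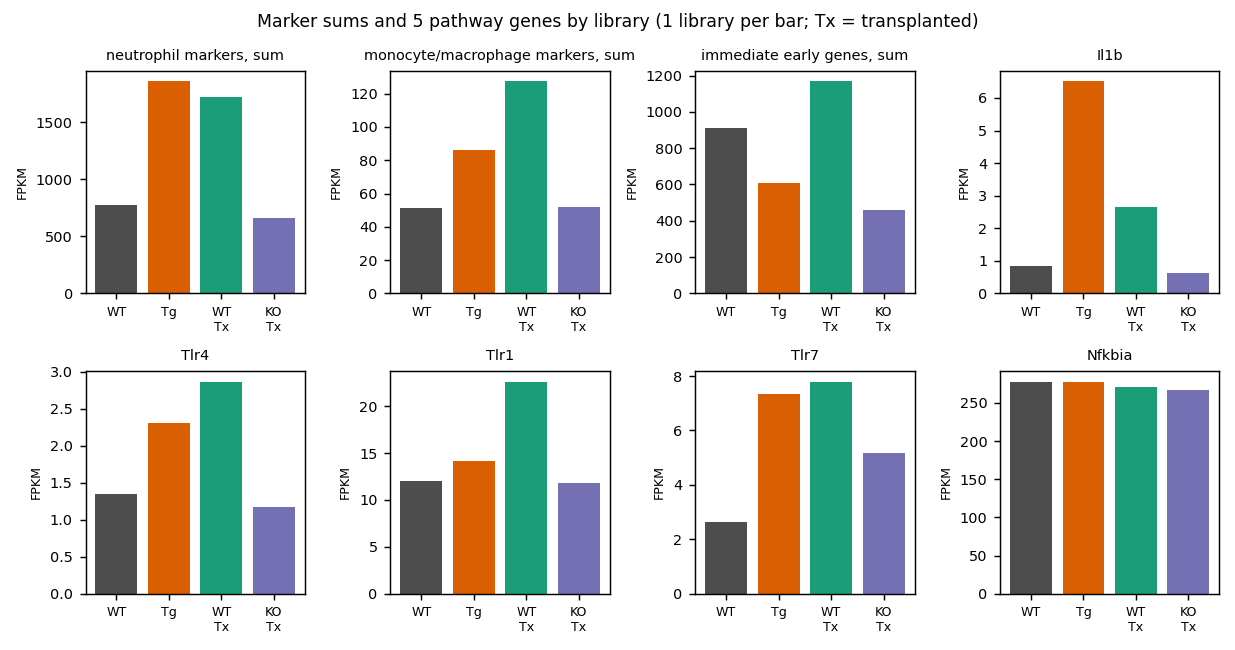
Summed FPKM of neutrophil markers (15 genes), monocyte and macrophage markers (9 genes) and immediate early genes (8 genes), and FPKM of 5 pathway genes, with 1 bar per library and each y axis starting at 0 on its own scale. Il1b and Tlr4 share with the myeloid sums their 2 high libraries, Tg and transplanted WT, while Nfkbia is even at 267 to 278 FPKM.

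Further genes of the pathway, 87 in the tables, were mostly lower in the library labelled KO and, unlike the even split of the members, more often higher than lower in Tg, a difference that was not tested. Of 61 tested in Tg against WT, 39 (63.9%) were higher and 22 lower, against 46.7% and 53.3% of all genes, at a median of 0.07. At 1.5-fold 7 were higher and 1 lower, against 3.81% and 2.31% of all genes. Of 63 tested in the library labelled KO against WT, 49 (77.8%) were lower and 14 higher, at a median of -0.23. Of all genes 56% were lower and 44% higher. At 1.5-fold 12 were lower and 1 higher, against 4.39% and 3.76% of all genes. Among receptors and chaperones, Unc93b1, which carries endosomal TLRs to their compartment, was at 476, 486, 511 and 464 FPKM, and Tlr3, Tlr5, Tlr8, Tlr11 and Tlr13 were below 1 FPKM in every library, while Tlr12 was at 4.69, 5.33, 2.69 and 3.8. Cd180, the gene of a B cell TLR homologue, was at 38.9, 30.8, 50.8 and 32.6, a ratio of 0.641 (0.581 to 0.708) for the library labelled KO and of 0.791 (0.705 to 0.886) for Tg. Its partner Ly86 was at 94.6, 124, 113 and 84.9 FPKM.

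Of 8 tested TNF and interleukin-1 family receptors 6 were lower in the library labelled KO, at a median of -0.39. Of all genes 56% were lower there. Cd40, a B cell co-stimulatory receptor that activates both NF-kB routes, was at 32.3, 34.5, 58.3 and 32.4 FPKM (0.555, 0.507 to 0.608), and Tnfrsf13b at 17.4, 19.8, 29.3 and 18.5 (0.631, 0.551 to 0.722). In contrast Tnfrsf13c, the receptor of the survival factor BAFF, was at 113, 119, 153 and 161. Of 26 further adaptors and regulators tested 20 were lower, against 56% of all genes, at a median of -0.19. The same list in Tg held 13 higher and 13 lower, against 46.7% and 53.3% of all genes. Its highest differences were those of Usp18 at 4.54, 10.7, 12.5 and 14.2, Irf7 at 10.1, 19.3, 22.8 and 26.6 and Ikbke at 1.14, 2.71, 1.98 and 1.34. Usp18 and Irf7 are also interferon-induced, and for both the steady-state WT was the 1 low library.

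Of 14 tested genes among the further NF-kB targets 10 were lower in the library labelled KO, at a median of -0.43. Of all genes 56% were lower there. At 2-fold 3 of the 14 were lower, against 1.18% of all genes. Those 3 were Cd69 at 175, 88.8, 184 and 61.3 FPKM, Myc at 10.8, 12.9, 38.0 and 17.2, and Ier3 at 3.09, 3.59, 7.45 and 3.0, and all 3 are also known to respond to other signals than NF-kB. In Tg 10 of 15 of these targets were higher, against 46.7% of all genes, at a median of 0.13. The difference was highest for Cd86, at 3.28, 6.49, 6.97 and 4.59, and lowest for Cd69. Of the cytokine genes on that list, Cxcl1 and Il12b were listed at 0 in every library and Il6 in 3 of them, while Ccl5 was at 2.96, 2.98, 3.99 and 1.78. Of the STAP relatives and partners, Stap1 was at 34.1, 38.4, 48.3 and 36.8 FPKM, and Stat3 at 42.9, 41.1, 44.4 and 36.3.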

How the data were processed

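Per the labels' protocols, RNA was extracted by miRNeasy and converted to libraries by TruSeq stranded mRNA chemistry. The deposited values were taken to be FPKM, because they are not whole, fall on length-dependent steps and come with Cufflinks in the notes; the headers name no unit. Per the submitters' processing notes, the build was mm10 and the tools Cufflinks 2.2.1, TopHat2 2.0.13, SAMtools 0.1.19 and Bowtie2 2.2.3. Their roles, the annotation and any scaling between libraries are not given in these sources.

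From these values, differences of log2(FPKM + 1), which understate changes of low genes, were computed for genes that reached 1 FPKM in one library of the pair (Python 3.11.15, pandas 2.3.3, SciPy 1.17.1). Calls were made at 1.5-fold and 2-fold on that scale, and printed ratios are plain FPKM ratios. Reads were estimated as FPKM times depth times transcript length less 210 nt, using the longest principal transcript of GENCODE M21 (GRCm38), to which 20911 symbols matched directly, 1915 through a RefSeq synonym and 458 not at all. The match to whole reads is partial: for genes with 1 transcript, 65.3% of 1782 values of up to 20 reads lay within 0.1 of a whole read. Where a gene has several transcripts these reads are rougher. The calls and intervals were tested on simulated reads with large changes, genes above a minimum level and counting error alone. That does not check calls of small differences or of low genes, or variation between libraries. Near-identical genes may share reads. The 48 members and all lists were chosen with earlier results of these data known. By rule, any member that reached 1 FPKM could be named, with a ratio where past 1.5-fold in a genotype comparison, and of each other list the 3 highest and 3 lowest differences. Ratios of members short of 1.5-fold, further genes of other lists (such as Unc93b1, Tnfrsf13c, Cxcl1, Il6, Stap1 and Stat3) and the promoters of Nfkbia, Nfkbie, Rel and Tnfaip3 were chosen after their values were seen, as were the comparisons by counting interval, among deeply read genes and by the order of libraries.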

Additional observations from a re-analysis of the deposited data

How the results depend on the processing

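Each comparison was repeated under 7 alternatives: pseudocounts of 0.1 and 0.5 FPKM, no filter on low values, a minimum of 5 FPKM, and 3 other scalings of the libraries. Under them the median difference of the pathway ranged from -0.23 to -0.19 for the library labelled KO, from -0.01 to 0.02 for Tg, where it changed sign around 0, and from 0.11 to 0.14 for transplanted against steady-state WT. No scaling moved the median of all genes by as much as 0.1. In the library labelled KO, 36 of 41 members tested were lower at a minimum of 5 FPKM and 41 of 48 with no filter. Under the remaining alternatives 37 to 40 of 47 were lower there, fewest with scaling by upper quartile. Its count at least 1.5-fold lower, 3 as reported, was 5 with a pseudocount of 0.1 FPKM and 1 at a minimum of 5 FPKM, and its count at least 1.5-fold higher, 0 as reported, was 1 with a pseudocount of 0.1 or of 0.5 FPKM. Counts of all genes at 2-fold depended on low genes: with a pseudocount of 0.1 FPKM they were 275 higher and 159 lower in Tg, against 132 and 74, and 154 higher and 267 lower in the library labelled KO, against 72 and 127. With a pseudocount of 0.5 FPKM the latter were 112 and 191. At a minimum of 5 FPKM they were 69 and 44 in Tg, and 80 lower in the library labelled KO. For transplanted against steady-state WT, 346 higher and 158 lower replaced 181 and 68 with a pseudocount of 0.1 FPKM, and 41 were lower at a minimum of 5 FPKM. With 1 library per group no library can be left out. No paired analysis was possible because each group has 1 library and the labels carry no replicate numbers.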
